A study of Mus musculus with 28 samples.

Results

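Striatal projection neuron genes are the transcripts by which the output neurons of the striatum are usually recognised. The panel held 9 genes, given by symbol with no limit set on their level or change: Ppp1r1b, Rgs9 and Pde10a (intracellular signalling), Drd1, Drd2 and Adora2a (receptors), and Tac1, Pdyn and Penk (neuropeptide precursors). They were taken from the 37974 genes of the single-cell table by gene name, where Drd1 carries its older name Drd1a, and matched by gene identifier to the 36358 genes of the tissue table. All 9 were read in single cells and 6 in tissue; Drd1, Drd2 and Adora2a were not analysed here in tissue. All mice were C57BL/6 with no transgene or treatment named. The subventricular zone (SVZ) with its ependymal layer, on the side of the lateral ventricle that borders the striatum, was profiled as RNA of whole tissue from mice aged 3 weeks (n = 3) and 18 months (n = 3). Single cells from the same region, sorted by size and complexity, picked by hand and kept where quantitative PCR found stem or progenitor cell markers (Dcx, Dlx2, Gfap or Prom1 among them), gave 22 libraries at 1 month and 24 months: 6 Prom1+ (3 at each age), 7 Gfap+ (2 at 1 month, 5 at 24 months) and 9 Dlx2+/Dcx+ (5 at 1 month, 4 at 24 months). These 3 groups were named by the study from the cells' own transcriptomes and not from a reporter. The labels name no animal for any sample, so p-values measure the spread between samples, which may be technical.

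Spiny projection neurons make up most striatal neurons and release GABA. Those of the direct pathway carry the dopamine D1 receptor (Drd1) and the peptides substance P and dynorphin, whereas those of the indirect pathway carry the dopamine D2 receptor (Drd2), the adenosine receptor encoded by Adora2a and enkephalin. Both classes use cAMP signalling: dopamine raises cAMP through D1 and lowers it through D2, and DARPP-32, the product of Ppp1r1b, becomes an inhibitor of protein phosphatase 1 when protein kinase A phosphorylates it.

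The coding stretches of the peptides that separate the direct from the indirect pathway are shown because the 3 precursor transcripts are read below as labels of these pathways. They were read 5′ to 3′ from GRCm38 transcripts (GENCODE M21). Each lies within 1 coding exon.

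Tac1, substance P, chr6:7556732-7556764, plus strand, exon 3, capitals marking the last 5 codons, the tachykinin signature: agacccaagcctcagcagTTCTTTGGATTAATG
Pdyn, dynorphin A, chr2:129688094-129688144, minus strand, exon 4, capitals marking the first 4 codons, the core that opioid peptides share: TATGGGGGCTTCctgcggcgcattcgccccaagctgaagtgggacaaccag
Penk, Met-enkephalin copy 1, chr4:4134334-4134348, minus strand, exon 2: tacggaggcttcatg
Penk, Met-enkephalin copy 2, chr4:4134313-4134327: tacggaggcttcatg
Penk, Met-enkephalin copy 3, chr4:4134226-4134240: taTggCggcttcatg
Penk, Met-enkephalin copy 4, chr4:4134073-4134087: taTggGggcttcatg
Penk, Met-enkephalin copy 5, chr4:4134001-4134015: tacggGggcttcatg
Penk, Met-enkephalin copy 6, chr4:4133848-4133862: tacggGggcttTatg

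Capitals in the Penk lines mark bases that differ from copy 1. All 6 copies stand in a single exon of a 268-codon reading frame and encode the same 5 residues, copies 1 and 2 with the same codons and the others with 1 or 2 bases changed, so 1 Penk transcript carries the peptide 6 times. The Tac1 frame of 130 codons and the Pdyn frame of 248 codons hold substance P and dynorphin A once each. Peptide levels were not measured.

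In tissue, 5 of the 6 transcripts that were read were at 40.7 FPKM or more in every sample while Pdyn fell to 2.68 FPKM, and 5 of the 6 had a higher mean at 18 months than at 3 weeks. Ppp1r1b was the gene that passed the limits of the study, an unadjusted p under 0.05 with a change above 1 on the log2 scale. Penk, Tac1 and Rgs9 had smaller differences with non-overlapping samples, Pdyn varied too widely within each age for a direction to be read, and Pde10a lay lower on average with overlapping samples. No member had a Benjamini-Hochberg adjusted p under 0.05 over the 12287 genes tested in limma. Levels are FPKM (fragment counts divided by transcript length and by the library's total of mapped fragments), and differences are 18 months minus 3 weeks on log2(FPKM + 1). In tissue, fewer cells of a type and less RNA per cell cannot be told apart.

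Ppp1r1b (ENSMUSG00000061718, chr11:98348404-98357796, plus strand, GRCm38), which encodes DARPP-32, was the most abundant member per length. Its level was 937, 422 and 401 FPKM in the 3-week samples and 1201, 1460 and 1279 FPKM in the 18-month samples. All 18-month samples lay above all 3-week samples, and the first 3-week sample lay closer to the older samples than to the other 3-week samples. The mean was 586 ± 304 FPKM at 3 weeks and 1313 ± 133 FPKM at 18 months (SD, n = 3 each). The difference was 1.27 ± 0.34 on the log2 scale (limma estimate ± SE; 95% confidence interval 0.42 to 2.12; adjusted p = 0.10). The gene overlaps the antisense transcript 1700003D09Rik, which ranged from 1.32 to 4.07 FPKM, and no strand setting is given in the sources used here.

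Rgs9 (chr11:109225355-109298129, minus strand) encodes a regulator of G-protein signalling that speeds the switching-off of G proteins below dopamine and opioid receptors. Its level was 161, 147 and 158 FPKM at 3 weeks and 227, 206 and 193 FPKM at 18 months. It had the tightest samples of the panel, with every older sample above every younger one. The difference was 0.42 ± 0.10 (limma estimate ± SE; interval 0.17 to 0.67; adjusted p = 0.0785), below the fold limit.

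Pde10a (chr17:8525372-8986648, plus strand) encodes the phosphodiesterase that breaks down cAMP and cGMP in projection neurons. Its level was 107, 87.7 and 80.1 FPKM at 3 weeks and 104, 41.6 and 40.7 FPKM at 18 months. The first older sample sat among the younger ones while the other two lay near one another below them, so the ages overlapped. The difference of -0.68 ± 0.39 did not pass (limma estimate ± SE; interval -1.64 to 0.27; adjusted p = 0.340). Without the first 18-month sample it was -1.12 and passed both limits, so the value rests on that sample. Pde10a spans 3 other annotated genes, of which Gm17087 reached 19.7 FPKM and the pseudogenes Gm15425 and Gm15426 stayed at or below 0.239 FPKM.

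**Figure D1:**
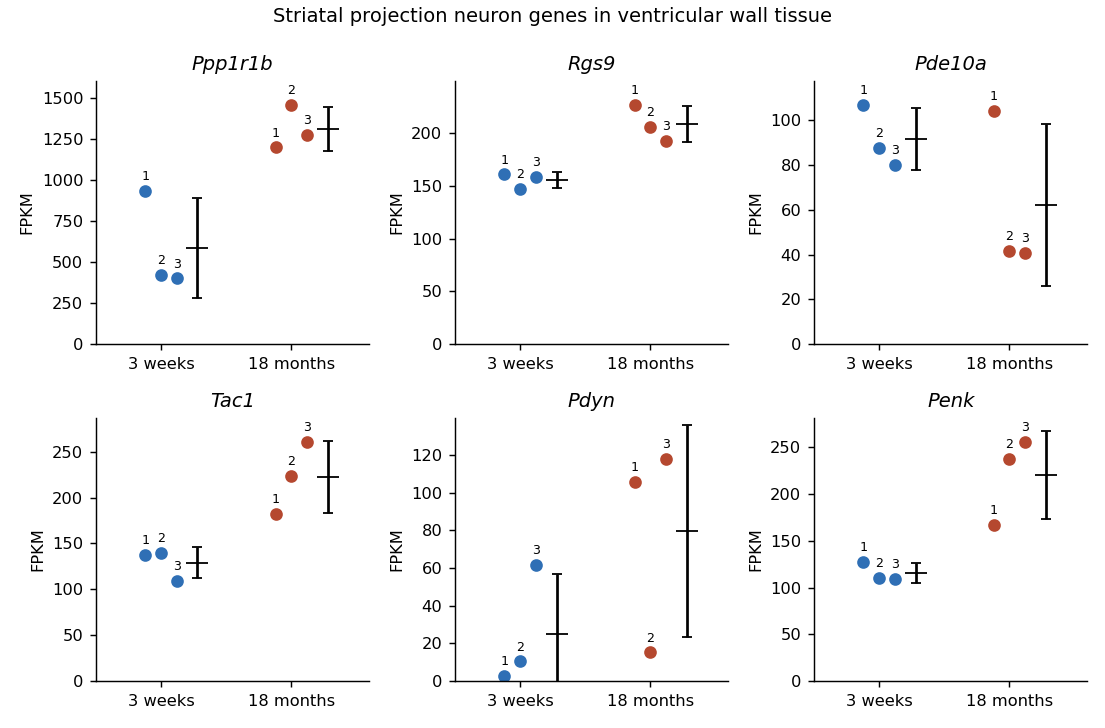
FPKM of each striatal projection neuron gene in the 3 tissue samples at 3 weeks (blue) and at 18 months (red), numbered by replicate, with mean ± SD in black; the lower SD bar of Pdyn at 3 weeks runs below 0 and is not drawn there. Ages separate completely for Ppp1r1b, Rgs9, Tac1 and Penk and overlap for Pde10a and Pdyn.

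Among the peptide precursors, the direct pathway gene Tac1 (chr6:7554879-7565834, plus strand) was at 138, 140 and 109 FPKM at 3 weeks and at 182, 223 and 261 FPKM at 18 months. The ages did not overlap. Its difference was 0.78 ± 0.17 (limma estimate ± SE; interval 0.35 to 1.21; adjusted p = 0.0682).

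Penk (chr4:4133531-4138819, minus strand), the indirect pathway precursor, was at 128, 111 and 109 FPKM at 3 weeks and at 167, 238 and 256 FPKM at 18 months. The ages did not overlap here either, and the first 18-month sample was the lowest of its age, as it was for Tac1. The difference was 0.90 ± 0.19 (limma estimate ± SE; interval 0.44 to 1.36; adjusted p = 0.0570). It stood just under the fold limit, and without the first 18-month sample it was 1.09 and passed. The overlapping antisense transcript A830012C17Rik was at most 1.63 FPKM.

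Pdyn (chr2:129686565-129699844, minus strand), the second direct pathway precursor, was at 2.68, 10.4 and 61.8 FPKM at 3 weeks and at 106, 15.1 and 118 FPKM at 18 months. The second 18-month sample fell among the 3-week samples, and the third 3-week sample lay well above the other two. The difference of 2.10 ± 1.26 was the largest of the panel and the least precise (limma estimate ± SE; interval -1.02 to 5.22; adjusted p = 0.368). Without the third 3-week sample it was 3.19 and passed both limits.

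**Figure D2:**
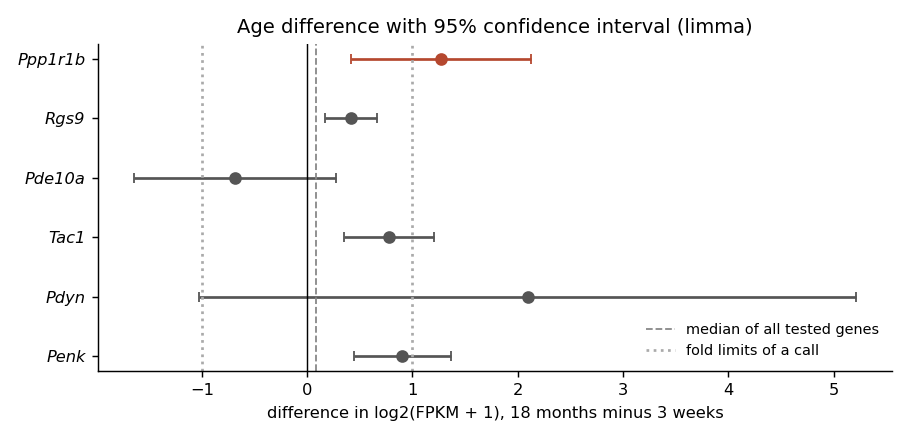
Difference in log2(FPKM + 1) between 18 months and 3 weeks for the 6 genes read in tissue, with 95% confidence intervals from limma; dotted lines mark the fold limits of a call and the dashed line the median of all tested genes, 0.09. Only the intervals of Pde10a and Pdyn cross 0, and Ppp1r1b is the gene past the fold limit that also passed the p limit.

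Over the panel, 1 of 6 genes was called higher, where 1.83% of all tested genes were, and 0 of 6 were called lower (2.07% of all genes). At an unadjusted limma p under 0.05 with no fold limit, 4 of 6 were higher and 0 lower, against 15.4% and 8.93% of all genes. With samples centred on pan-neuronal genes, 2 of 6 were higher (Ppp1r1b and Penk) and 1 lower (Pde10a) at that limit, against 2.58% and 8.99% of all genes. At an adjusted p under 0.05, 0 of 6 were higher and 0 lower, against 2.51% and 2.42% of all genes. Samples of the ages did not overlap for 4 of 6 genes, all higher at 18 months, where 20.9% of all genes did so in that direction and 12.2% in the other. The median difference was 0.84 for the panel and 0.09 for all tested genes.

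The spread within an age differed widely across the panel. The range of log2(FPKM + 1) over 3 samples of an age had a median of 0.33 at 3 weeks and 0.41 at 18 months over all tested genes, and it passed 1 in 14.3% and 16.2% of them. Rgs9 had a range of 0.13 at 3 weeks and 0.23 at 18 months. Tac1 stood at 0.35 and 0.51, and Penk at 0.23 and 0.62. Ppp1r1b ranged over 1.22 at 3 weeks but 0.28 at 18 months, and Pde10a showed the reverse order, with 0.41 and 1.33. Pdyn ranged over 4.09 at 3 weeks and 2.89 at 18 months. The sample that stood apart was not the same for each gene: the first 3-week sample for Ppp1r1b, the third 3-week sample for Pdyn, and at 18 months the first for Pde10a and the second for Pdyn.

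**Figure D3:**
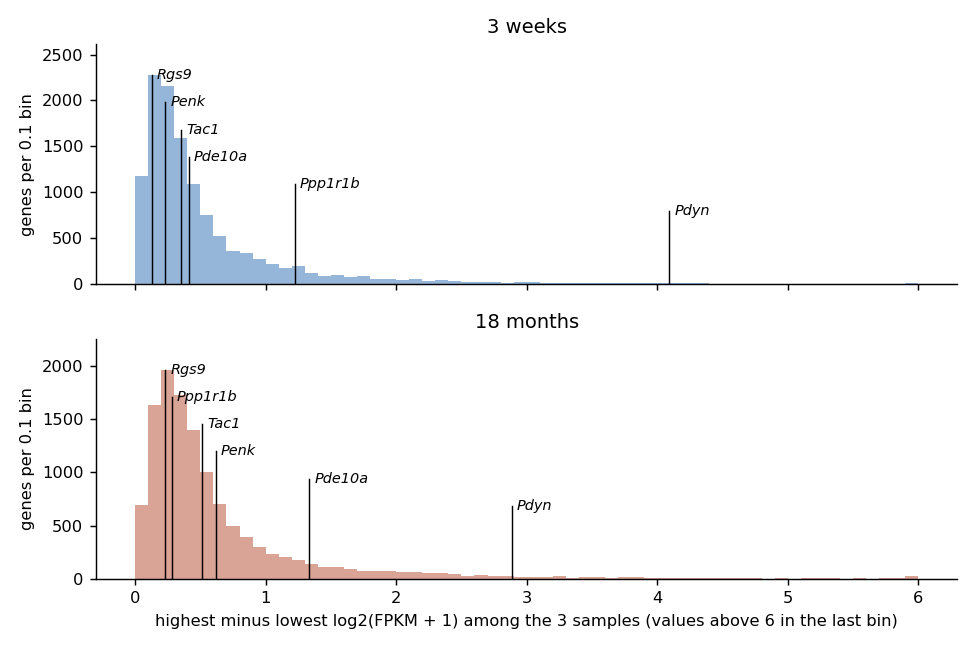
Number of tested genes by the highest minus the lowest log2(FPKM + 1) among the 3 samples of an age, with the projection neuron genes marked by black lines of staggered height. Rgs9 and Tac1 fall near the bulk of genes at both ages, Ppp1r1b falls in the tail at 3 weeks (1.22), Pde10a in the tail at 18 months (1.33), and Pdyn in the far tail at both.

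To set direct against indirect pathway transcripts without regard to how a sample was scaled, ratios were taken within each sample. The log2 ratio of Tac1 to Penk was 0.11, 0.34 and 0.0045 at 3 weeks and 0.13, -0.092 and 0.027 at 18 months. The ages overlapped, and the difference of -0.13 gave p = 0.50 in a two-sided exact permutation test, where 3 against 3 samples cannot go below 0.10. The ratio of Pdyn to Penk was -5.57, -3.42 and -0.82 at 3 weeks and -0.66, -3.98 and -1.12 at 18 months, a difference of 1.35 (exact permutation p = 0.60). The ratio of Ppp1r1b to Snap25, a synaptic protein of all neurons, was 1.19, 0.093 and -0.064 at 3 weeks and 0.89, 1.28 and 2.40 at 18 months. These too overlapped, with a difference of 1.12 (exact permutation p = 0.20), and the highest value came from the sample in which Snap25 was lowest, at 243 FPKM. With 1 sample left out, the difference ran from -0.20 to -0.034 for Tac1 to Penk (lowest in size without the second 3-week sample), from 0.20 to 2.58 for Pdyn to Penk (without the first and without the third 3-week sample) and from 0.68 to 1.51 for Ppp1r1b to Snap25 (without the third 18-month and without the first 3-week sample). None of the 3 ratios could pass a threshold of 0.05 in this design.

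A wider set of 78 other genes, listed for projection neurons but not all particular to them, held 59 genes read in tissue and 57 tested. Of these, 1 was called higher and 3 were called lower, 4 were higher and 1 lower at an adjusted p under 0.05 (limma, Benjamini-Hochberg), and 17 had non-overlapping samples higher against 3 lower. The gene lower by adjusted p was Gsx2, a homeobox gene of ventricular progenitors that was also among the 3 called lower. Gsx2 passed the filter on low values through the 3-week samples alone. Over all tested genes the shares were 1.83% and 2.07% called, 2.51% and 2.42% by adjusted p, and 20.9% and 12.2% without overlap. Differences were positive in 42 of 57 genes of the set and in 58.8% of all genes, with a median of 0.33 in the set. When samples were centred on pan-neuronal genes instead, the median was 0.13 against -0.10 for all genes.

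By role, the direct pathway list had 5 tested genes of 9, Tac1 and Pdyn included, with 0 called in either direction by limma, 1 higher at an unadjusted p under 0.05 and a median of 0.33. That median was 0.20 without the first 18-month sample, 0.56 without the second, 0.57 without the third 3-week sample and 0.13 centred on pan-neuronal genes. The transcription factors Isl1, Ebf1 and Eya1 of that list overlapped between ages, with differences of 0.32, 0.06 and 0.33. The indirect pathway list had 3 tested genes of 7 and 0 called by limma, with 2 higher at an unadjusted p under 0.05 and a median of 0.75. Besides Penk it held the kainate receptor gene Grik3, which did not overlap (0.40), and the transcription factor Sp9, which did (0.75) and set the median. The study also names Sp9 among the genes of its Dlx2+/Dcx+ neuroblast cluster, and which cells gave its level in tissue was not tested. Sp9 was at 0.389, 15.6 and 16.7 FPKM at 3 weeks and at 12.9, 10.6 and 11.0 FPKM at 18 months. Without the first 3-week sample its difference turned to -0.46 and the list's median was 0.43.

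The list of cAMP and G-protein signalling held 16 tested genes of 25, with 1 called higher, 2 called lower and a median of 0.15 that was -0.047 centred on pan-neuronal genes. With no fold limit, 5 were higher and 2 lower at an unadjusted limma p under 0.05, against 15.4% and 8.93% of all genes. Ppp3r1, the regulatory subunit of calcineurin, the phosphatase that dephosphorylates DARPP-32, was at 37.4, 28.7 and 30.5 FPKM at 3 weeks and at 39.5, 271 and 304 FPKM at 18 months. The first 18-month sample lay barely above the younger ones, and the difference of 2.18 had an adjusted p of 0.172 in limma. Gng7, a G-protein gamma subunit that works with the striatal stimulatory G protein, was at 591, 587 and 577 FPKM at 3 weeks and at 61.9, 444 and 74.8 FPKM at 18 months. The 18-month samples were all lower, but the sample at 444 FPKM lay far above the rest of its age. The difference of -2.19 had an adjusted p of 0.156 in limma. Rasd2, which encodes the striatal small GTPase Rhes, was at 306, 294 and 47.5 FPKM at 3 weeks and at 44.5, 40.4 and 46.9 FPKM at 18 months. The third 3-week sample stood beside the older ones, and the difference of -1.87 had an adjusted p of 0.196 in limma. Each of these 3 genes was thus called with 1 sample near the other age, and a range within 1 age of at least 2.66 on the log2 scale. Each kept its call in 1 of the 6 fits that left out a sample. The catalytic subunit gene Ppp3ca, the second most abundant of the list, was at 381, 317 and 280 FPKM at 3 weeks and at 440, 421 and 449 FPKM at 18 months (difference 0.43, limma adjusted p = 0.128).

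The other receptors held 10 tested genes of 14, with 0 called by limma and 2 higher at an unadjusted p under 0.05. Their median was 0.44, and 0.25 centred on pan-neuronal genes. The histamine receptor gene Hrh3 overlapped, with a difference of -0.10.

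Of 12 striatal transcription factors tested, 1 was called lower and 0 higher, with a median of 0.13 that was 0.056 without the third 3-week sample and -0.063 centred on pan-neuronal genes. Gsx2, a homeobox gene of ventricular progenitors, was at 2.59, 2.50 and 2.68 FPKM at 3 weeks and at 0.606, 0.476 and 0.673 FPKM at 18 months. Its samples were tight at both ages, and it fell by 1.18 on the log2 scale (limma adjusted p = 0.00563). All its 18-month values were under 1 FPKM, so Gsx2 entered the fit through the 3-week samples alone; with no filter on low values it had the same difference and was also called. The more abundant Foxp1 and Meis2, which mature projection neurons also use, overlapped between ages with differences of 0.09 and -0.05.

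The remaining list of projection neuron genes held 17 tested of 20, with 0 called by limma, 6 higher and 0 lower at an unadjusted p under 0.05. Its median was 0.51, and 0.32 centred on pan-neuronal genes. Pcp4, which encodes a calmodulin-binding peptide, was its most abundant gene and overlapped, with 170, 1650 and 1598 FPKM at 3 weeks against 1311, 1296 and 1130 FPKM at 18 months. The calcium sensor gene Hpca was at 328, 285 and 299 FPKM at 3 weeks and at 394, 391 and 374 FPKM at 18 months, a difference of 0.35 (limma adjusted p = 0.0957). The 4 genes of the wider set with an adjusted p under 0.05 and a higher level at 18 months are named after their values were seen. They were Ngef, a guanine nucleotide exchange factor (0.51, limma adjusted p = 0.0379), Dclk3, a kinase (0.79, adjusted p = 0.0474), Wfs1, a protein of the endoplasmic reticulum (0.70, adjusted p = 0.0464), and Rasgrp2, a Rap exchange factor (0.55, adjusted p = 0.0393). All 4 rose by less than the fold limit, and none of them had overlapping samples.

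**Figure D4:**
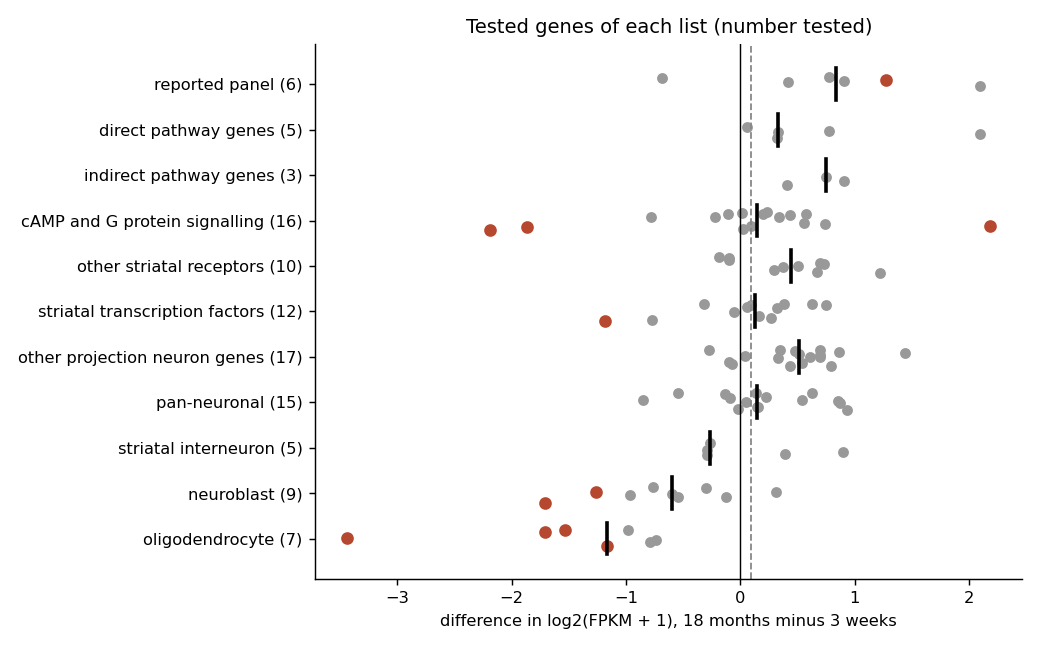
Difference in log2(FPKM + 1), 18 months minus 3 weeks, for each tested gene of the projection neuron lists and of 4 marker lists; red points passed the p and fold limits, black bars are list medians and the dashed line is the median of all genes (0.09). The reported panel has the highest list median (0.84) of those drawn and the oligodendrocyte list the lowest (-1.16).

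Markers of other cells moved with age in the same samples. Of 15 tested pan-neuronal genes, 0 were called by limma, 3 were higher and 1 lower at an unadjusted p under 0.05, the median was 0.14 (0.064 without the first 18-month sample and 0.30 without the second), and their summed level was 2191 to 2550 FPKM at 3 weeks and 2291 to 3000 FPKM at 18 months. Oligodendrocyte markers, 7 of 8 read, summed to 19947 to 22106 FPKM at 3 weeks and to 3787 to 4492 FPKM at 18 months. Of these 7, 4 were called lower and 0 higher. Mbp alone, the myelin basic protein gene, gave a mean of 15064 FPKM at 3 weeks and 1420 FPKM at 18 months. Neuroblast markers, 9 of 12 read, summed to 630 to 754 FPKM at 3 weeks and 406 to 542 FPKM at 18 months, with Dlx1 and Dlx2 called lower. At an unadjusted limma p under 0.05, 5 were lower and 1 higher, Dlx6, with a difference of 0.31 and no overlap. The part of these shifts in the projection neuron result was not tested, nor was the share of striatum in each dissection.

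For the other neuron classes, 5 interneuron, 3 cortical, 4 septal and 3 dopamine neuron genes were tested and 0 were called by limma. At an unadjusted p under 0.05, 2 interneuron, 0 cortical, 1 septal and 1 dopamine neuron gene were higher and 0 of any class lower. The septal gene, Ngfr, was under 1 FPKM in every 3-week sample and passed the filter on low values through the 18-month samples alone. Summed levels were 121 to 232 FPKM at 3 weeks and 98.3 to 214 FPKM at 18 months for interneuron genes, 60.8 to 65.1 and 63.0 to 69.8 for cortical genes, 5.35 to 7.46 and 7.71 to 8.06 for septal genes, and 27.9 to 29.7 and 30.3 to 35.3 for dopamine neuron genes. Of the tested astrocyte (6), ependymal (5), choroid plexus (2), microglia (6) and endothelial (4) genes, 0 were called by limma. At an unadjusted p under 0.05, 1 astrocyte, 2 ependymal and 2 microglia genes were higher, and 1 microglia and 1 endothelial gene lower.

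The genes whose levels across the 6 tissue samples were most like the mean scaled profile of the panel were Gm11681, Immp2l, Pcsk2, Ngef, Ctss, Hmgcll1, Chst15, Tchh, St3gal5 and Cfap46. Their Pearson correlations ran from 0.998 to 0.990 over 6 samples that share 1 division by age, so high values are easily reached among 12287 genes. Gm11681 and Tchh were under 1 FPKM in every 3-week sample and passed the filter on low values through the 18-month samples alone. Pcsk2 encodes a protease that cuts neuropeptide precursors such as those of the panel. It was at 52.5, 46.1 and 48.8 FPKM at 3 weeks and at 79.9, 68.1 and 72.4 FPKM at 18 months, a difference of 0.57 with no overlap. Ngef is also in the wider set above. The largest differences among the listed genes were those of Cfap46 (1.17) and Ctss (0.95). Which cells gave the levels of the listed genes was not tested.

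Within the panel, Penk and Tac1 had the highest correlation with one another over the 6 samples (r = 0.97), although they label different pathways. Ppp1r1b had r = 0.87 with Penk, 0.84 with Tac1 and 0.83 with Rgs9. Pdyn had r between -0.30 and 0.54 with the other genes, and Pde10a had negative r with each of them, from -0.30 with Pdyn to -0.81 with Penk. The points share the age groups and the FPKM scaling, and the values are descriptive.

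In single cells most values of the panel were listed at 0. The genes that served to select and name the cells are given first, as a description and no test of identity. Gfap was 48.7 to 194 FPKM in Gfap+ cells and 0 in all Prom1+ cells, and Dcx was 15.8 to 267 FPKM in Dlx2+/Dcx+ cells and at most 0.516 FPKM elsewhere. All 7 Gfap+ cells also held the oligodendrocyte genes Mag (924 to 4960 FPKM), Mog (792 to 3251 FPKM) and Mobp (4959 to 11082 FPKM), against at most 37.9 FPKM of Mog and 1.38 FPKM of Mobp in Prom1+ cells. In Dlx2+/Dcx+ cells Mag and Mog were at most 1.97 FPKM, whereas Mobp passed 1 FPKM in 8 of 9 cells and reached 213 FPKM. A value of 0 is not evidence that a gene is silent, because Actb, which cells in general use, stood at 0 in each of the 6 Prom1+ cells and at 10900 FPKM or more in every other cell.

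Of 198 member values (9 genes in 22 cells), 23 were above 0 and 11 above 1 FPKM, in 7 cells. Both dopamine receptor genes, Adora2a and Pdyn were listed at 0 in all 22 cells. Ppp1r1b, the most abundant member in tissue, was at 0 in 20 cells and reached 0.411 FPKM in a 24-month Gfap+ cell and 0.405 FPKM in a 1-month Dlx2+/Dcx+ cell. Its lowest tissue value was 401 FPKM.

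Penk passed 1 FPKM in 3 cells, at 144 and 99.7 FPKM in 2 Dlx2+/Dcx+ cells of 1 month and at 406 FPKM in a Gfap+ cell of 24 months. The FPKM of a cell summed to 868792 to 1801303 and those of a tissue sample to 297529 to 318909, so levels were also taken as parts per 1000000 of each sum. On that scale the highest cell stood at 295 for Penk, under the lowest tissue sample at 341. Tac1 was above 0 in 1 cell, a Dlx2+/Dcx+ cell of 1 month at 111 FPKM. On the scale of parts of the sum this was 123, against 342 in the lowest tissue sample. Penk was listed at 0 in that cell, and Tac1 was listed at 0 in each cell with Penk.

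Rgs9 was the most widely read member, above 0 in 13 cells and above 1 FPKM in 5. It reached 17.5 FPKM in a Dlx2+/Dcx+ cell of 1 month, 12.6 and 2.97 FPKM in Prom1+ cells of 1 and 24 months, and 2.49 and 1.02 FPKM in 2 Gfap+ cells of 24 months. Pde10a passed 1 FPKM in 2 cells, a Dlx2+/Dcx+ cell (12.1 FPKM) and a Prom1+ cell (2.73 FPKM), both of 1 month.

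By group, 3 of 54 member values passed 1 FPKM in Prom1+ cells (5.56%), 3 of 63 in Gfap+ cells (4.76%) and 5 of 81 in Dlx2+/Dcx+ cells (6.17%). Over all 37974 genes read in cells, 4398 to 6626 passed 1 FPKM in a cell. All 5 member values of the Dlx2+/Dcx+ cells came from 3 cells of 1 month, and the 4 Dlx2+/Dcx+ cells of 24 months had 0. With no animal named, each group at each age counts as 1 sample and no test was made. As a contrast within the same cells, Gad2, a GABA-synthesising enzyme that projection neurons share with neuroblasts, exceeded 1 FPKM in each of the 9 Dlx2+/Dcx+ cells (6.95 to 322 FPKM). It passed 1 FPKM in 1 of 7 Gfap+ cells and in 0 of 6 Prom1+ cells. Gad1, for another GABA-synthesising enzyme, passed 1 FPKM in 6 of the 9 Dlx2+/Dcx+ cells and stood at 0 in 2. In Gfap+ and Prom1+ cells 0 passed that limit for Gad1. Pan-neuronal genes passed 1 FPKM in 20.8% of their values in Dlx2+/Dcx+ cells, 21.9% in Prom1+ cells and 7.14% in Gfap+ cells.

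**Figure D5:**
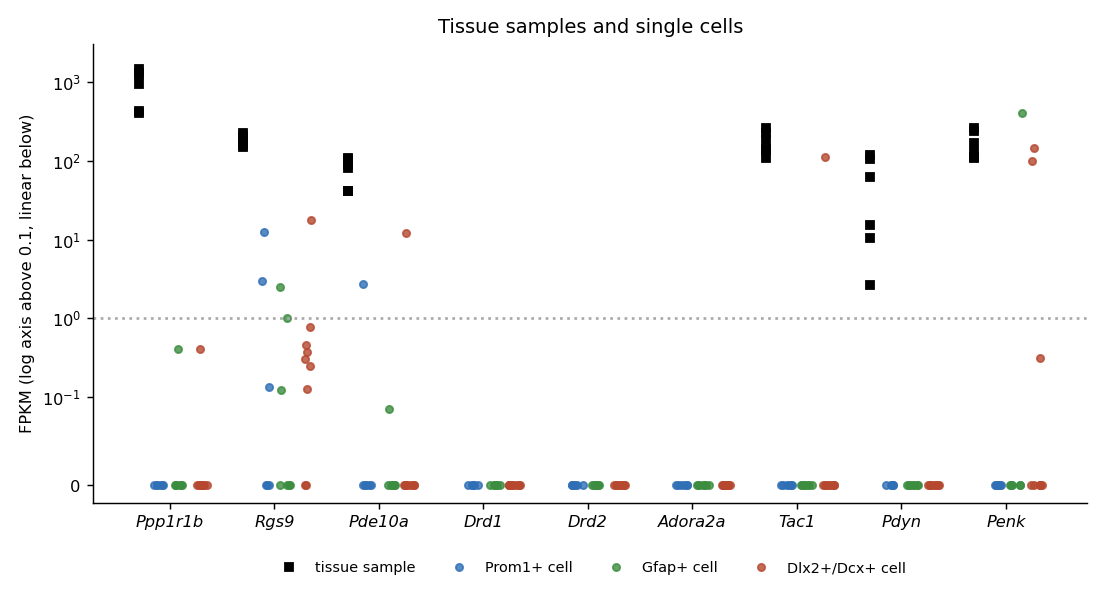
FPKM of the 9 projection neuron genes in the 6 tissue samples (black squares, absent for the 3 receptors not analysed in tissue) and in each of the 22 cells, on an axis that is logarithmic above 0.1 and linear below, with a dotted line at 1 FPKM. Cells lie within or above the FPKM of tissue for Penk and Tac1 only, but FPKM sum to more in cells than in tissue, and as parts of the sum no cell reaches the tissue range of the 6 genes read there; 4 genes lie at 0 in all cells.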

How the data were processed

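RNA of SVZ tissue (6 samples) and of single cells (22 Smart-seq2 libraries) was sequenced by the authors. Per the labels, HISAT2, StringTie and featureCounts with GRCm38 were used; versions and annotation release are not given in the sources used here. The authors deposited FPKM, with 1 column per sample and no further scaling stated; no value column was left unmapped. The labels give the single-cell preparation for all samples, so tissue handling is taken from the study's methods. Low values of tissue genes with 1 transcript were near whole multiples of a common step in 61.4% to 62.8% of cases (within 0.05), which gives an estimated depth of 18329480 to 22212210 fragments; too few were whole for counts to be recovered, so the study's count model was not run.

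Genes with at least 1 FPKM in at least 3 tissue samples (12287) were fitted on log2(FPKM + 1) with limma 3.58.1 in R 4.3.3 (empirical Bayes with trend, age as the only term), and p-values were adjusted by Benjamini-Hochberg over all of them. Calls needed an unadjusted p under 0.05 together with a log2 change above 1 in either direction, the study's limits. The +1 understates changes of low genes. The steps were tested on simulated data. Ratios were compared with exact permutation tests (scipy 1.17.1). Alternatives were another pseudocount (0.1), no filter, TPM and quantile scaling, centring on pan-neuronal genes, adjusted p, a replicate block, a fit without trend and leaving out each sample. The planned Drd1 to Drd2 ratio was not run, since these genes were not analysed here in tissue.

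Text names all 9 members, the called genes and the most abundant tested genes of the wider lists, and the 10 genes closest to the panel's profile. Some genes that this rule would name are not reported here. The members and lists were chosen with earlier results of these data known, so lists are described by counts and medians and no list was tested. Positions come from GENCODE M21 by gene identifier (99.2% of tissue and 86.7% of cell identifiers matched); positions in the cell table did not follow GRCm38 for most genes and were not used.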

Additional observations from a re-analysis of the deposited data

Results flagged for a closer look

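In the 3 groups of 4 or 5 cells, 10 sets of member values were not all equal, and in 7 a cell passed Dixon's limit at the 95% level, which chance passes in about 1 in 20 groups. In all but the Rgs9 set the other cells were at 0, where any value above 0 passes, so these say nothing of distance from the group. In 1-month Dlx2+/Dcx+ cells these were Tac1 at 111 FPKM (other cells at 0), Rgs9 at 17.5 FPKM (next cell 0.769), Pde10a at 12.1 FPKM and Ppp1r1b at 0.405 FPKM (others at 0). In 24-month Gfap+ cells they were Penk at 406 FPKM, Ppp1r1b at 0.411 FPKM and Pde10a at 0.0868 FPKM, with the other cells at 0 for each. Rgs9 and Ppp1r1b had these values in the same Dlx2+/Dcx+ cell, which also held Penk at 99.7 FPKM. The source of these values was not tested.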

How the results depend on the processing

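The sign of each of the 6 tissue differences was kept under every alternative run. With the fold limit kept and the adjusted p in place of the unadjusted one (limma, Benjamini-Hochberg), Ppp1r1b (1.27, adjusted p = 0.10) was not called, so 0 members were called higher; in the wider set 0 were then higher and 1 lower, and over all genes 128 higher and 151 lower. With 1 sample left out, members called ranged from 1 to 2 higher and 0 to 1 lower, wider genes from 0 to 2 higher and 0 to 2 lower; Gsx2 was under the filter in the fits without a 3-week sample. TPM scaling left 2 wider genes lower, without Rasd2. The difference ran from 1.06 to 1.67 for Ppp1r1b, 0.78 to 1.09 for Penk, 1.14 to 3.19 for Pdyn and -1.12 to -0.46 for Pde10a; Penk and Pde10a passed without the first 18-month sample and Pdyn without the third 3-week sample. All genes called higher numbered 225, but 416 with a pseudocount of 0.1, 384 with TPM scaling and 143 centred on pan-neuronal genes; those lower numbered 254 and, centred, 478. Centring moved the median of all genes from 0.09 to -0.10 and that of the wider set from 0.33 to 0.13; Ppp1r1b was then 1.08 and still called, while Tac1 (0.58) and Rgs9 (0.23) no longer passed the unadjusted p limit and Pde10a (-0.88) did, under the fold limit. The causes were not tested. Replicate numbers did not pair the tissue samples (correlations of deviations -0.096, -0.011 and -0.098); with a replicate block 1 member was called higher and 0 lower, and 244 genes were higher and 261 lower over all. Member values above the limit in cells numbered 11 at 1 FPKM, 22 at 0.1 FPKM and 7 at 10 FPKM. With 3 samples an age, a p that misses the limit does not show equal levels.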
